A study of Macaca mulatta with 10 samples.

Results

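The Kelch-like family was examined as the genes whose symbol starts with KLHL or KBTBD followed by a digit. Gene identifiers were matched to symbols with an Ensembl table for the rhesus monkey, and 33 of the 28595 genes measured met this rule, 28 of them KLHL and 5 KBTBD genes. Each symbol belonged to a single gene. A further 13 symbols of the family, among them KLHL22, KLHL24 and KLHL25, were not analysed here because no row could be matched to them.

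Skeletal muscle and adipose tissue (labelled fat) were taken from 5 male rhesus monkeys (Macaca mulatta), 4 controls (rhesus_920401, rhesus_940129, rhesus_940313 and rhesus_950509) and 1 case (rhesus_950807), and each tissue of each animal gave 1 polyA, strand-specific RNA-seq library. The case is labelled as having an extremely high insulin level, and per the study it was obese and heterozygous for a nonsense variant in the protein kinase D2 gene, PRKD2. The labels name no treatment, the age of each animal is not given there, and per the study all were kept in the same facility on the same chow. Because the RNA-seq here covers a single hyperinsulinemic monkey, genotype, body weight, insulin level and every other trait of that animal cannot be told apart.

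Most Kelch-like proteins join an N-terminal BTB domain, which binds the scaffold protein cullin-3, to a C-terminal Kelch propeller, which holds a substrate. They thereby act as exchangeable adaptors of cullin-3 ubiquitin ligases, in which a RING protein recruits the ubiquitin-conjugating enzyme, and attachment of the small protein NEDD8 to the cullin switches the ligase on. In skeletal muscle several members are known for other roles as well: KLHL40 and KLHL41 stabilise proteins of the sarcomere's thin filament, and mutations in KLHL40, KLHL41 or KBTBD13 cause nemaline myopathy in humans. Members also touch insulin signalling, since KLHL9 has been linked to turnover of insulin receptor substrate 1 and KBTBD2 to turnover of the p85α subunit of PI3-kinase.

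Levels are given as RPKM, the reads of a gene scaled to the length of its longest transcript and to the mapped reads of the library, so they can be compared between genes. Libraries held 35682861 to 43268985 mapped reads in control muscle and 33961486 in the case's muscle. In adipose tissue the controls had 30669915 to 39379286 mapped reads and the case 41780234. The 8 skeletal muscle markers summed to 45431 to 59185 RPKM in control muscle and to 13.2 to 209 RPKM in control adipose tissue, and 7 of 8 adipocyte markers were higher in adipose tissue, the exception being the FABP4 row. ACTA1, the skeletal muscle actin, stood at 101 RPKM in the adipose library of rhesus_920401, and in the adipose libraries of rhesus_920401 and rhesus_940313 it reached 0.343% and 0.270% of its level in the same animal's muscle, against 0.00182% to 0.00505% in the other 3 adipose libraries. In bulk tissue, fewer cells of a type and less RNA per cell cannot be told apart.

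Mean control levels of at least 1 RPKM were found in muscle only for 6 members, in adipose tissue only for 9, and in both for 8. The other 10 members (KBTBD3, KLHL1, KLHL3, KLHL6, KLHL10, KLHL11, KLHL14, KLHL17, KLHL28 and KLHL32) were below 1 RPKM in both tissues, and KLHL1 had no read in any of the 10 libraries. The shares of all genes in these classes were not computed. With scaling to mapped reads, as in RPKM, 63% of all genes tested between the tissues were called higher in adipose tissue. Summed over the family, control muscle held 297 to 497 RPKM and control adipose tissue 56.7 to 136 RPKM. KLHL30, KLHL38, KLHL40 and KLHL41 made up 85.0% to 91.5% of that sum in control muscle and 86.7% in the case's muscle, but only 0.379% to 2.89% in control adipose tissue.

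**Figure D1:**
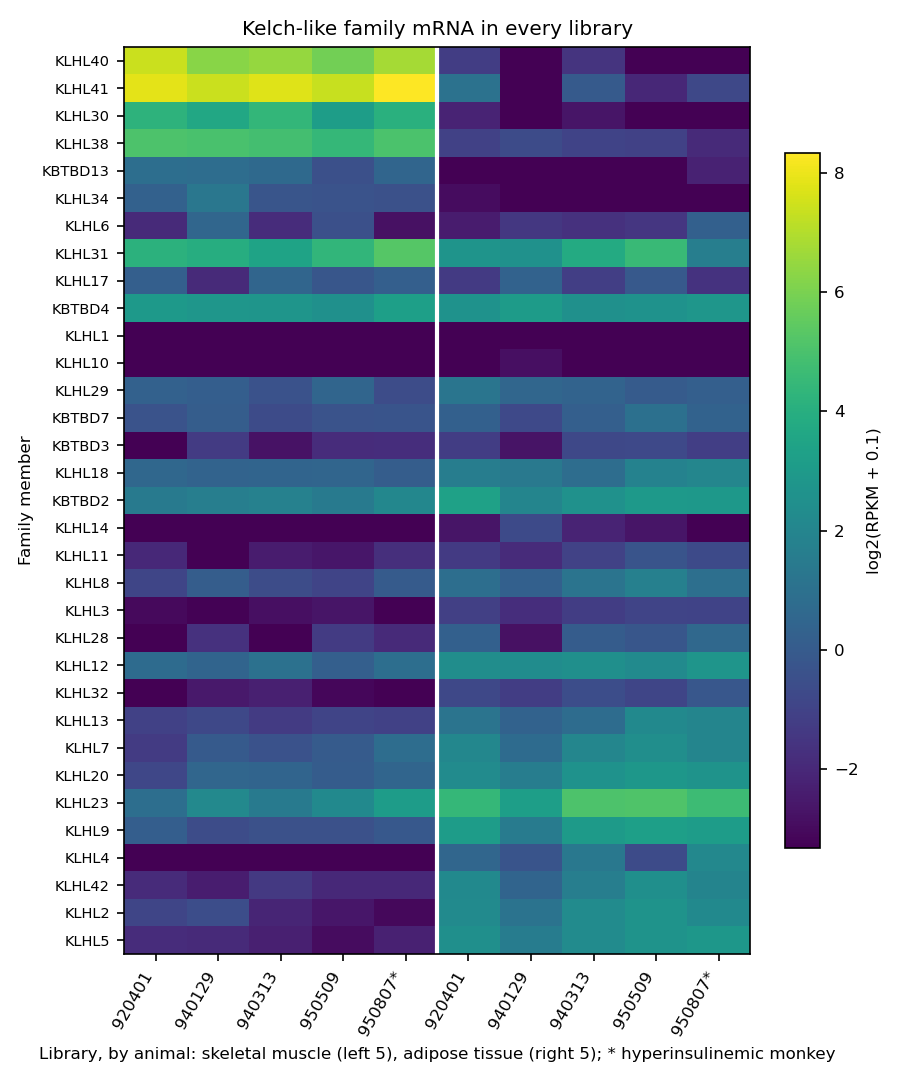
Levels of the 33 family members (rows, ordered by the difference between tissues in the controls) in the 10 libraries (columns: muscle left of the white line, adipose tissue right of it, each by animal, the hyperinsulinemic monkey starred), coloured by log2(RPKM + 0.1). Each of the rows of KLHL40, KLHL41, KLHL30 and KLHL38 at the top is brighter in all 5 muscle libraries than in any adipose library. Each of the rows at the bottom, from KLHL9 to KLHL5, is darker in all 5 muscle libraries than in any adipose library.

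In the controls, muscle was compared with adipose tissue by edgeR's quasi-likelihood test on the deposited counts, over 11173 genes whose mean reached 1 RPKM. A gene was called when its Benjamini-Hochberg adjusted p was under 0.05 and its log2 difference at least 1 in size. Of the 33 members 19 could be tested, of which 6 were called higher in muscle and 7 higher in adipose tissue (4 without rhesus_940313). Over all genes tested, 22% were called higher in muscle and 29.6% higher in adipose tissue. The median log2 difference was -0.41 over the 19 members and -0.23 over all genes.

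These counts move with the scaling between tissues. TMM, the scaling used, sets aside genes with extreme ratios when it fixes library sizes, whereas dividing by mapped totals (as RPKM does) shifts the median of all genes to -1.61. With mapped totals 4 members were called higher in muscle, namely KLHL30, KLHL38, KLHL40 and KLHL41, and 12 higher in adipose tissue, against backgrounds of 7.15% and 63%. The remaining pair called higher in muscle under TMM, KLHL31 and KBTBD4, was not called under mapped totals.

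**Figure D2:**
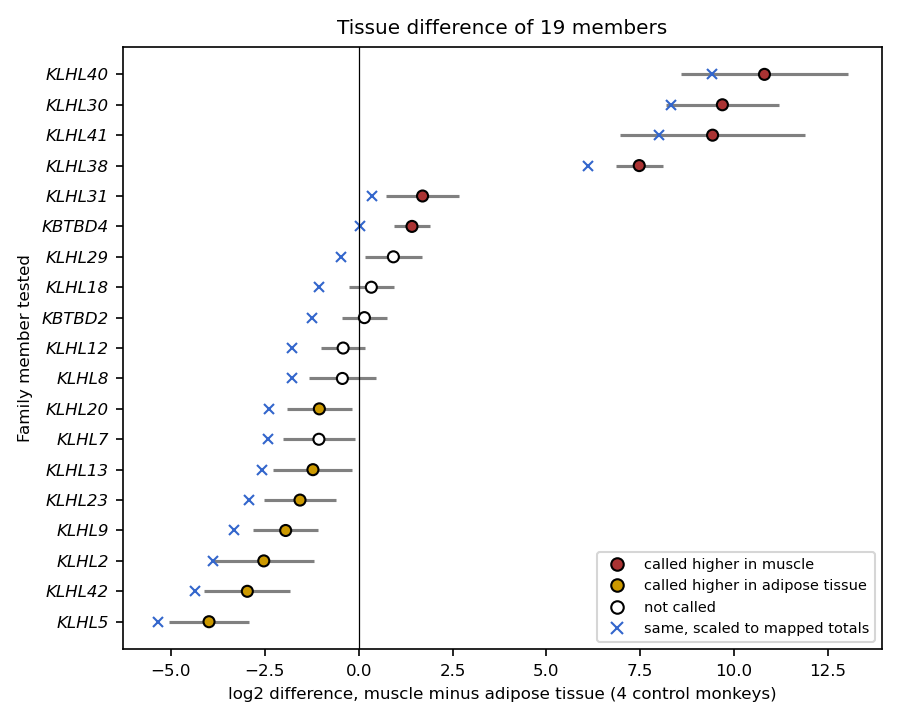
Log2 difference between muscle and adipose tissue of the 4 control monkeys (x axis, positive is higher in muscle) for the 19 members tested, with 95% confidence intervals as bars, filled points for called members and blue crosses for the same difference scaled to mapped totals. KLHL40, KLHL30, KLHL41 and KLHL38 lie above 6 with either scaling, and the cross of every member lies to the left of its point.

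Muscle-restricted members were defined as those called higher in muscle with a control mean at least 10 times that in adipose tissue. There were 4, KLHL30, KLHL38, KLHL40 and KLHL41, and the same 4 met a ratio of 5 or of 20. No sequence is shown for them because the reference tables held none.

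KLHL41, which stabilises thin-filament proteins such as nebulin, was the most abundant member (chromosome 12, 33124870 to 33142784, plus strand, in the files' own coordinates, whose genome build is not given in the sources used here). It stood at 233, 171, 216 and 165 RPKM in the muscle of rhesus_920401, rhesus_940129, rhesus_940313 and rhesus_950509, and at 324 RPKM in that of the case. In adipose tissue the same controls gave 2.03, 0, 0.885 and 0.146 RPKM, and the case 0.472 RPKM. Every muscle library thus exceeded every adipose library, with a log2 difference of 9.43 ± 1.13 (SE, adjusted p = 2.87e-05 by edgeR), which was 10.30 without rhesus_920401.

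KLHL40, a partner that protects nebulin and the thin-filament protein leiomodin-3 (LMOD3) from degradation, was next (chromosome 2, 93879349 to 93886054, minus strand). Its levels were 169, 77.3, 91.0 and 57.1 RPKM in the muscle of the 4 controls, in the same order, and 107 RPKM in the case. KLHL40 reads were present in the adipose tissue of rhesus_920401 (26 reads, 0.335 RPKM) and rhesus_940313 (22 reads, 0.239 RPKM) and absent from the other 3 adipose libraries, where a count of 0 allows up to 0.0301 to 0.0409 RPKM. The log2 difference between the tissues was 10.81 ± 1.01 (SE, adjusted p = 4.49e-06 by edgeR). Without the adipose libraries of rhesus_920401 and rhesus_940313 all KLHL40 reads in adipose tissue are lost, so that its fold is then only a lower bound.

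KLHL38, a less studied member, is known to be expressed in muscle (chromosome 8, 126220073 to 126228322, minus strand). It was at 34.2, 31.8, 28.6 and 21.5 RPKM in control muscle and at 32.6 RPKM in the case. In adipose tissue it was low but present in all libraries, at 0.380, 0.531, 0.408 and 0.371 RPKM in the controls (22 to 29 reads) and at 0.161 RPKM in the case (12 reads, exact Poisson 95% interval 0.0833 to 0.282 RPKM, covering counting error only). Its log2 difference, 7.47 ± 0.29 (SE, adjusted p = 5.36e-08), was the smallest of the 4 and had the smallest standard error.

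KLHL30 shares the domain layout of the family and its function is little known (chromosome 12, 102005584 to 102016042, plus strand). Muscle levels were 18.4, 12.8, 21.2 and 8.94 RPKM in the controls and 16.6 RPKM in the case. In adipose tissue only rhesus_920401 (7 reads, 0.126 RPKM) and rhesus_940313 (4 reads, 0.0606 RPKM) had KLHL30 reads. The log2 difference was 9.69 ± 0.69 (SE, adjusted p = 5.56e-07 by edgeR) and 10.51 without rhesus_920401. Without both of these adipose libraries no KLHL30 read is left in adipose tissue, and its fold, like that of KLHL40, is then only a lower bound.

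**Figure D3:**
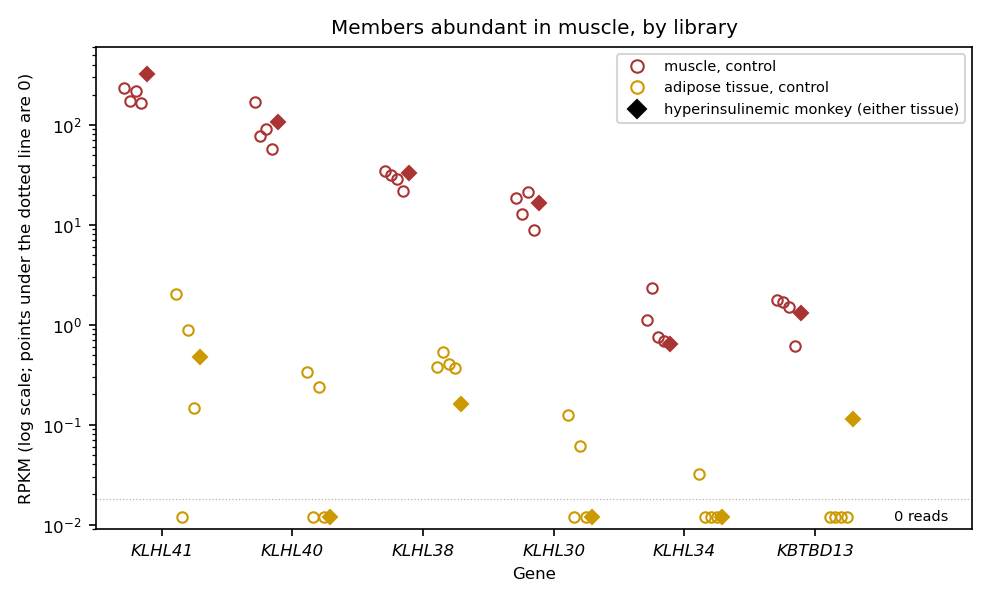
RPKM on a log axis of 6 members with a control mean of at least 1 RPKM in muscle only, in muscle (red) and adipose tissue (yellow), with open circles for the 4 controls, filled diamonds for the hyperinsulinemic monkey, and points under the dotted line for libraries with no read. KLHL41 and KLHL40 span 57.1 to 324 RPKM over the muscle libraries, and KLHL38 alone of the 6 has reads in all 5 adipose libraries.

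In control muscle the ranges of KLHL41 and KLHL40 overlapped slightly, at 165 to 233 and 57.1 to 169 RPKM. KLHL38 (21.5 to 34.2 RPKM) overlapped neither KLHL40 above it nor KLHL31 below it. KLHL31 (10.8 to 20.1 RPKM) and KLHL30 (8.94 to 21.2 RPKM) could not be ordered beyond their spread. The muscle of rhesus_950509 had the lowest control level of all 4 restricted members, and of 8 of the 13 members tested in muscle, while over all genes 30.8% were lowest in that library.

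The adipose level of each restricted member was also expressed as a share of its level in the same animal's muscle. For KLHL40 this was 0.198% in rhesus_920401 and 0.263% in rhesus_940313 and 0% in the other 3 animals, and for KLHL30 it was 0.682%, 0.286% and otherwise 0%. KLHL41 gave 0.871% and 0.409% in those animals, 0.0887% in rhesus_950509, 0.146% in the case and 0% in rhesus_940129. The adipose libraries with KLHL40 and KLHL30 reads were thus the 2 in which ACTA1 was highest, as were 6 of the 8 skeletal muscle markers in all. The other two went differently, DES being highest in rhesus_940129 and the case (34.1 and 30.5 RPKM, against 24.6 RPKM in rhesus_920401) and TRIM63 in rhesus_940129 and rhesus_940313 (2.23 and 1.93 RPKM). KLHL38 did not follow that order, with 1.11% in rhesus_920401, 1.42% in rhesus_940313, 1.67% in rhesus_940129, 1.72% in rhesus_950509 and 0.495% in the case. In rhesus_940129 and rhesus_950509, where ACTA1 was at most 0.00374% of its muscle level, KLHL38 had 29 and 26 reads. The part of muscle RNA in the adipose levels of these genes was not tested.

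**Figure D4:**
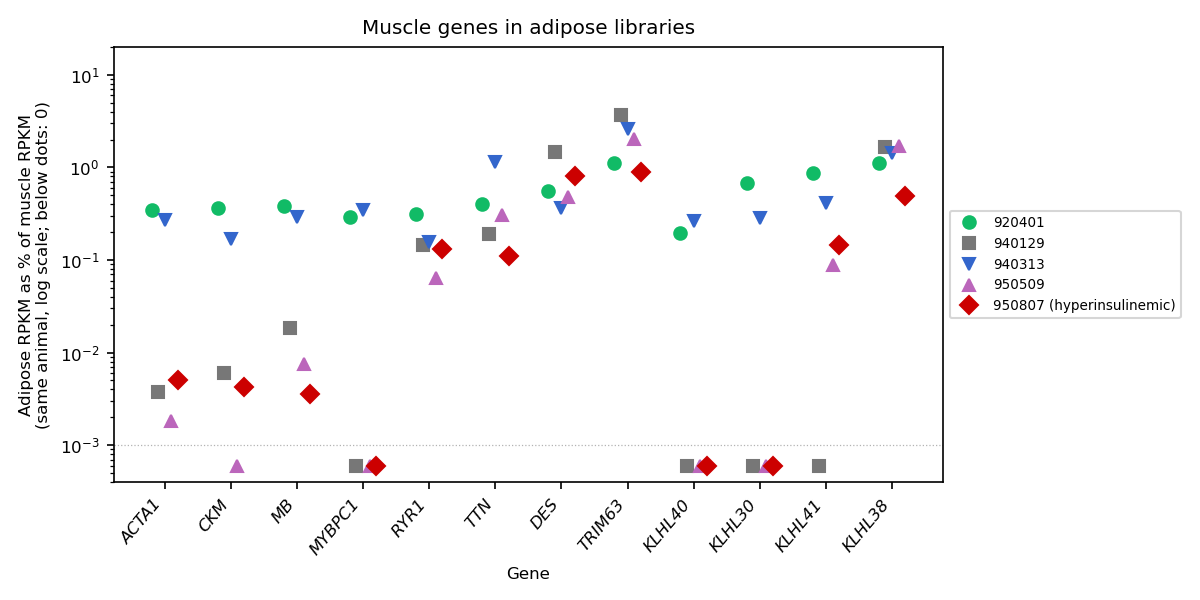
Adipose RPKM as a percentage of muscle RPKM in the same animal (log axis, with points under the dotted line at 0) for the 8 skeletal muscle markers (ACTA1 to TRIM63) and the 4 muscle-restricted members, with a symbol for each animal. Animals rhesus_920401 and rhesus_940313 stand highest for 6 of the 8 markers (not for DES and TRIM63) and for KLHL40, KLHL30 and KLHL41, whereas for KLHL38 all 4 controls lie between 1.11% and 1.72%.

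KBTBD13 and KLHL34 had control means of at least 1 RPKM in muscle only, but over both tissues they were below the filter of the tissue test. KBTBD13, the nemaline myopathy gene that acts as a cullin-3 adaptor (chromosome 7, 43548541 to 43549800, plus strand), was at 1.75, 1.69, 1.50 and 0.611 RPKM in control muscle (28 to 85 reads) and 1.31 RPKM in the case. No control adipose library had a KBTBD13 read, and the case's adipose tissue had 6 (0.114 RPKM). By control mean RPKM, against a floor of 3 reads per library, KBTBD13 was at least 20.3-fold higher in control muscle than in control adipose tissue. KLHL34, an X-linked member whose function is little known, was at 1.13, 2.34, 0.754 and 0.683 RPKM in control muscle and 0.640 RPKM in the case, with 2 reads in the adipose tissue of rhesus_920401 and none in the other adipose libraries. Its highest level was in the muscle of rhesus_940129.

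When no filter was set, 32 members were tested among 18040 genes, of which 9 were called higher in muscle and 7 higher in adipose tissue, against 15.9% and 23.5% of all genes. The members called higher in muscle then also included KBTBD13, KLHL34 and KLHL6, a member known from B lymphocytes. KLHL6 stood at 0.166, 1.35, 0.181 and 0.616 RPKM in control muscle and at 0.0874 to 0.266 RPKM in control adipose tissue, so that these ranges overlapped.

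KLHL31, which binds the muscle filamin FLNC and is needed for normal skeletal muscle in mice, was not restricted to muscle here (chromosome 4, 53271740 to 53276680, minus strand). Its control levels were 17.9, 15.1, 10.8 and 20.1 RPKM in muscle and 6.49, 5.82, 13.9 and 24.0 RPKM in adipose tissue, and the ranges overlapped. In adipose tissue it ranked second in the family by control mean, after KLHL23, and its highest adipose level was in rhesus_950509, where ACTA1 was lowest. The part of muscle RNA in its adipose levels was not tested. For KLHL31 the log2 difference between tissues with TMM was 1.70 ± 0.44 (SE, adjusted p = 0.00556 by edgeR), but with mapped totals it was 0.35 (adjusted p = 0.450). KBTBD4, an adaptor for the chromatin regulators of the CoREST complex, behaved likewise, at 6.75 ± 0.827 RPKM in muscle and 6.56 ± 1.29 RPKM in adipose tissue (SD, n = 4). Its log2 difference was 1.42 with TMM (adjusted p = 0.000185 by edgeR) and 0.04 with mapped totals. KBTBD4 overlaps PTPMT1 on the opposite strand over 5951 bases, and since the use of strand in the counting is not stated, reads of the pair may not be told apart. The same limit holds for the overlaps of KLHL2 with GK3 (1869 bases) and KLHL23 with METTL5 (260 bases). It also holds for KLHL8 and a gene without a symbol (1162 bases). METTL5 was at 9.13 RPKM in control adipose tissue and 1.02 RPKM in control muscle, on average.

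Members higher in adipose tissue were led by KLHL5, KLHL42 and KLHL2. KLHL5, a member whose role is less defined, was at 5.55, 2.91, 4.91 and 6.28 RPKM in control adipose tissue and 0.0316 to 0.178 RPKM in control muscle. Its log2 difference, muscle minus adipose tissue, was -3.99 ± 0.49 (SE, adjusted p = 3.56e-05 by edgeR). KLHL42, an adaptor for the microtubule-severing protein katanin, was at 4.56, 1.27, 3.12 and 5.48 RPKM in adipose tissue and at 0.0936 to 0.278 RPKM in muscle, with a log2 difference of -2.97 ± 0.52 (SE). KLHL2, which targets the WNK kinases that control ion transport, was at 4.70, 2.08, 4.90 and 6.19 RPKM in adipose tissue and at 0.0619 to 0.586 RPKM in muscle, with a log2 difference of -2.53 ± 0.61 (SE), which was -3.17 without rhesus_940129. In RPKM, no muscle library of a control reached any control adipose library for these 3 members. Among the tested members the same held for KLHL9, KLHL13, KLHL20 and KLHL23, which were called with TMM. It also held for KBTBD2, KLHL7, KLHL8, KLHL12 and KLHL18, none of which was called with TMM. How many of all genes separate in this way was not computed. With mapped totals, as in RPKM, 63% of all genes were called higher in adipose tissue. KLHL4, an X-linked member, had no read in any muscle library and 0.539 to 2.46 RPKM in control adipose tissue (76 to 340 reads). By control mean RPKM, against 3 reads per library, KLHL4 was at least 57.7-fold higher in adipose tissue. This bound uses mapped totals, with which every tested member lay further toward adipose tissue than with TMM.

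KLHL23 was the most abundant member of adipose tissue, at 21.9, 9.32, 34.2 and 34.6 RPKM in the controls and 1.73 to 4.60 RPKM in their muscle, and its log2 difference was -1.56 ± 0.44 (SE, adjusted p = 0.00882 by edgeR, and 0.0773 without rhesus_940313). KLHL13, which acts with KLHL9 in cell division, and KLHL20, which targets the death-associated kinase DAPK1, were also called, at log2 differences of -1.22 and -1.05 (adjusted p = 0.0441 and 0.0374 by edgeR). Each of these calls was lost in 7 of 12 alternatives, with adjusted p up to 0.282 for KLHL13 and 0.165 for KLHL20, and with the animal as a block KLHL13 was no longer called (log2 difference -1.03, adjusted p = 0.103 by edgeR). KLHL7, linked to retinal disease, narrowly missed the threshold at -1.06 (adjusted p = 0.0514 by edgeR). KLHL8, KLHL12, KBTBD2, KLHL18 and KLHL29 were not called, with log2 differences from -0.43 to 0.92. For the members tested, the ratio of the highest to the lowest control had a median of 3.01 over 17 members in adipose tissue. In muscle it was 1.85 over 13 members, a set that differs in part. KLHL12 (1.16 in adipose tissue and 1.81 in muscle) and KLHL20 (2.37 and 2.85) went the other way. This spread was not computed over all genes. The adipose library of rhesus_940129 had the lowest control level for 12 of those 17 members, while over all genes 36.4% were lowest in that library.

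Among the members tied to insulin signalling, KLHL9 was at 8.56, 2.74, 8.08 and 9.44 RPKM in control adipose tissue and 8.52 RPKM in that of the case. In muscle KLHL9 was at 0.560 to 1.03 RPKM in the controls and 0.840 RPKM in the case, and its log2 difference between the tissues was -1.94 ± 0.40 (SE, adjusted p = 0.00125 by edgeR). KBTBD2 was at 9.98, 3.90, 5.85 and 7.81 RPKM in control adipose tissue and at 2.60 to 3.35 RPKM in control muscle. For KBTBD2 the direction between tissues turned with the scaling, from a log2 difference of 0.15 with TMM to -1.24 with mapped totals. KLHL3, the WNK adaptor of the distal nephron, stayed below 0.42 RPKM in all 10 libraries.

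The partners of the family were examined as lists. Of 26 genes of the cullin-3 ligase core, its neddylation and its cycling, 21 were tested, of which 10 were called higher in muscle and 2 higher in adipose tissue with TMM, but 2 and 6 with mapped totals. Over all genes the shares were 22% and 29.6% with TMM and 7.15% and 63% with mapped totals. Their median log2 difference was 1.10, against -0.23 over all genes. CAND2, the muscle form of the exchange factor that swaps adaptors on cullins, was at 38.2 ± 4.99 RPKM in muscle and 1.67 ± 0.40 RPKM in adipose tissue (SD, n = 4), a log2 difference of 5.91. Its paralogue CAND1 was at 1.39 ± 0.273 and 9.16 ± 2.93 RPKM, a log2 difference of -1.34. DCUN1D2, which promotes neddylation of cullins, was 4.24 higher in muscle on the log2 scale, and COPS3, a subunit of the COP9 signalosome that removes NEDD8, was 2.12 higher with TMM and not called with mapped totals. CUL3 itself was at 16.4 ± 2.55 RPKM in muscle and 15.7 ± 6.0 RPKM in adipose tissue (SD, n = 4), and its log2 difference was 1.44 with TMM and 0.07 with mapped totals.

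Of 26 other BTB adaptors, 20 were tested, with 3 called higher in muscle and 6 higher in adipose tissue with TMM, and 1 and 13 with mapped totals. These shares stood near those over all genes (29.6% higher in adipose tissue with TMM and 63% with mapped totals). The 4 with the smallest p were KEAP1, the sensor that restrains NRF2 (log2 difference 2.99), RHOBTB1 (1.52 with TMM and not called with mapped totals), ENC1 (-4.16) and KCTD10 (-1.43). Of the 5 other cullins, CUL4A was called higher in muscle with TMM only (2.08) and CUL4B higher in adipose tissue (-2.68). Of 24 substrates and partners of the family, 17 were tested, with 5 called higher in muscle and 5 higher in adipose tissue, and 2 and 9 with mapped totals. The leiomodin LMOD3 stood at 40.2 ± 6.99 RPKM (SD, n = 4) in control muscle and 0 to 0.281 RPKM in control adipose tissue, and FLNC at 127 to 314 and 8.35 to 15.7 RPKM, with log2 differences of 10.11 and 5.32. In the opposite direction PIK3R1, which encodes p85α, had a log2 difference of -3.70, and DAPK1 one of -3.0.

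The hyperinsulinemic monkey was then compared with the 4 controls in each tissue, to ask whether any member differed with the animal's state. With 1 case, the spread is estimated among the controls and the case is assumed to vary like them, and an exact permutation of 1 animal against 4 cannot give a p below 0.2. In muscle 13 members were tested among 8306 genes, and in adipose tissue 17 among 11981. No member was called in either tissue at an adjusted p under 0.05 by edgeR, DESeq2 or limma, and of all genes 0% were called by edgeR in each tissue. At an unadjusted p under 0.05, 2 members were higher in the case's muscle (KLHL31 and KLHL23) and 1 was lower in its adipose tissue (KLHL31), against 9.08% and 2.39% of all genes in either direction.

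KLHL31 had the smallest unadjusted p among the members in both tissues. In muscle it was at 38.7 RPKM in the case, above the 10.8 to 20.1 RPKM of the controls, with a log2 difference of 1.09 (95% CI 0.33 to 1.85, adjusted p = 0.482 by edgeR). In adipose tissue it was at 3.04 RPKM in the case, below the 5.82 to 24.0 RPKM of the controls, with a log2 difference of -2.25 (95% CI -4.12 to -0.37, adjusted p = 0.9999 by edgeR). The difference between these effects, adipose tissue minus muscle, was -3.34 (95% CI -5.59 to -1.09) with an unadjusted p of 0.00711 in the edgeR fit and an adjusted p of 0.824, the adjusted p ranging from 0.0771 to 0.9999 over the alternatives. This interaction was tested for 7 members, none of which passed by edgeR, and KLHL31 was the only member under an unadjusted p of 0.05, against 5.47% of all genes. Both comparisons involve the same animal, but their libraries are separate.

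**Figure D5:**
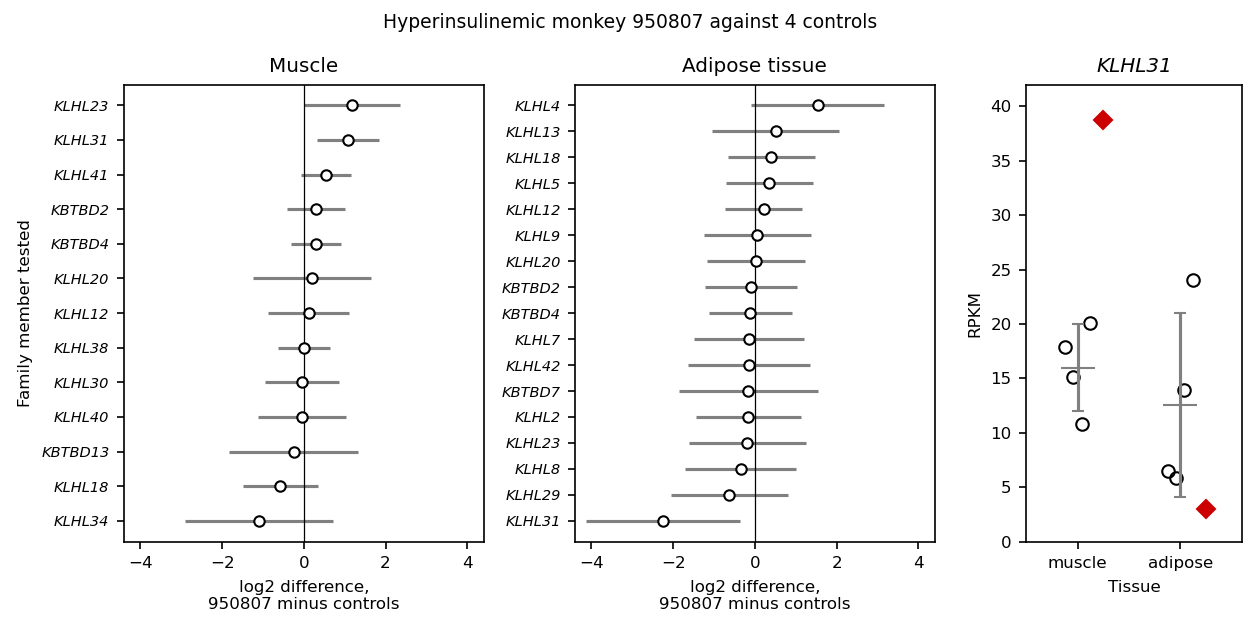
Left and centre, log2 difference between the hyperinsulinemic monkey rhesus_950807 and the 4 controls for the members tested in muscle (13) and adipose tissue (17), with 95% confidence intervals as bars. Right, KLHL31 RPKM in the 4 controls (circles, with their mean ± SD in grey) and in the hyperinsulinemic monkey (red diamonds), which is above all controls in muscle at 38.7 and below all controls in adipose tissue at 3.04.

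Among the muscle-restricted members, KLHL41 was higher in the case than in every control, at 324 against 165 to 233 RPKM, with a log2 difference of 0.55 (95% CI -0.06 to 1.16, adjusted p = 0.595 by edgeR). KLHL40, KLHL38 and KLHL30 lay within the range of the controls in the case's muscle, with log2 differences of -0.05 (95% CI -1.13 to 1.03), -0.00076 (95% CI -0.64 to 0.64) and -0.05 (95% CI -0.96 to 0.86). Differences within these intervals were not detectable with 1 case. The sum of the skeletal muscle markers was 59229 RPKM in the case, against at most 59185 RPKM in a control.

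KLHL23 was at 8.55 RPKM in the case's muscle and 1.73, 4.42, 2.57 and 4.60 RPKM in that of the controls, with a log2 difference of 1.18 (95% CI 0.01 to 2.34, adjusted p = 0.551 by edgeR). The largest decreases in muscle, none of which passed the test, were in KLHL34 (-1.09, 95% CI -2.91 to 0.72), KLHL18 (-0.57) and KBTBD13 (-0.24) on the log2 scale. The 7 slow-fiber markers summed to 119 RPKM in the case's muscle and 503 to 4661 RPKM in that of the controls, and the 6 markers of smooth muscle and pericytes to 56.4 against 95.5 to 138 RPKM. The part of fiber type and of vessels in these values was not tested. The case lay above all controls in RPKM for 5 of the 13 members (KBTBD2, KBTBD4, KLHL23, KLHL31 and KLHL41) and below all of them for 2, against 34.9% and 15.2% of all genes in muscle.

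In adipose tissue the largest increases in the case were in KLHL4 (log2 difference 1.53, 95% CI -0.10 to 3.17), KLHL13 (0.51) and KLHL18 (0.40), and the largest decreases besides KLHL31 in KLHL29 (-0.63) and KLHL8 (-0.35), none of which passed the test. KLHL4 was at 4.26 RPKM in the case and 1.32, 0.728, 2.46 and 0.539 RPKM in the controls, so that the case was the highest of the 5. The insulin-linked KLHL9 and KBTBD2 had log2 differences of 0.06 (95% CI -1.26 to 1.37) and -0.10 (95% CI -1.22 to 1.03), and KLHL2 and KLHL20 of -0.17 and 0.03. In muscle KBTBD2 was at 4.06 RPKM in the case and 2.60 to 3.35 RPKM in the controls, a log2 difference of 0.30 (95% CI -0.40 to 1.01), and KLHL20 had 0.20. The case lay above all controls for 4 of 17 members in adipose tissue and below all of them for 1, against 27.9% and 7.8% of all genes. The 6 macrophage markers summed to 377 RPKM in the case's adipose tissue and 110 to 311 RPKM in that of the controls. The fibroblast markers (2561 against 1269 to 1956 RPKM), the endothelial markers (189 against 104 to 157 RPKM), the T and B cell markers (7.74 against 1.22 to 3.72 RPKM) and the slow-fiber markers (110 against 68.7 to 85.2 RPKM) were also above all controls, whereas adipocyte, smooth muscle, mesothelial and neuronal markers lay within their range. The part of such cells in the members' values was not tested.

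No gene of the lists of cullin-3 factors, other cullins, other BTB adaptors or substrates was called in either tissue of the case by edgeR at an adjusted p under 0.05. At an unadjusted p under 0.05 by edgeR, 1 of 20 cullin-3 factors, 1 of 4 other cullins and 3 of 16 other BTB adaptors were higher in the case's muscle. Of 14 substrates and partners 1 was higher and 1 lower. Over all genes 9.08% had such a p in either direction, and 34.9% lay above all controls in RPKM. The cullin-3 factor was CUL3, at 29.7 RPKM against 13.1 to 18.6 RPKM in the controls (log2 difference 0.68, adjusted p = 0.514 by edgeR). LMOD3 was at 84.4 RPKM in the case's muscle and 30.5 to 47.0 RPKM in that of the controls (log2 difference 0.89, adjusted p = 0.482 by edgeR), and FLNC at 162 RPKM and 127 to 314 RPKM. TCOF1, another substrate, was lower in the case's muscle, at 0.999 against 1.69 to 2.49 RPKM (log2 difference -1.24, adjusted p = 0.498 by edgeR). The smallest p of any list gene was that of RHOBTB3, at 9.88 against 2.66 to 3.72 RPKM in muscle (log2 difference 1.47, adjusted p = 0.342 by edgeR). CUL2, another cullin scaffold, was at 7.13 against 1.75 to 3.74 RPKM (log2 difference 1.21, adjusted p = 0.482 by edgeR), and RHOBTB1 and IVNS1ABP were the other list genes under an unadjusted p of 0.05 in muscle (0.86 and 0.62). In adipose tissue no list gene had an unadjusted p under 0.05 by edgeR, against 2.39% of all genes.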

How the data were processed

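Strand-specific (dUTP) libraries of polyA RNA (RNA integrity number above the study's minimum) were sequenced on an Illumina HiSeq system, and the study kept uniquely mapped reads from TopHat (TopHat 1.2.0 in the submitters' processing notes, while the study's methods give another release). Which tool counted the reads, and on which genome build and annotation, was not given in the sources used here. The authors deposited, for each library, whole-number read counts per gene and RPKM values, which equalled the reads divided by the longest transcript and by the mapped total in 100% of genes with reads. The file's start positions were changed from 0-based to 1-based.

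Symbols were found for 15556 of 28595 genes (54.4%), and the member with the highest mean RPKM would have been kept for a symbol with several rows. Counts were tested with edgeR 4.0.16 (quasi-likelihood, TMM; R 4.3.3) over genes whose mean reached 1 RPKM, and p-values were adjusted over all genes tested. Comparisons were muscle against adipose tissue in the 4 controls, the case against the controls in each tissue, and the difference of these effects. Alternatives were median-of-ratios scaling, mapped totals, DESeq2 1.42.0, limma 3.58.1 on log2(RPKM + 1) and log2(RPKM + 0.1), no filter, a filter of 5 RPKM, each control left out, the animal as a block, all 10 libraries in a single fit, and 2 adipose libraries left out. Scripts were tested on simulated data. Each library is 1 animal's sample, so p-values measure the spread between animals. Depth is given with the results, and intervals and floors cover counting error only.

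Members named with values are the muscle-restricted ones, those called in a case comparison, the 3 largest rises and falls in the case in each tissue, the insulin- or WNK-linked KLHL9, KBTBD2, KLHL25, KLHL3, KLHL2, KLHL20 and KLHL22 where measured, and those called higher in adipose tissue by a log2 difference of at least 2. List genes were limited to the 4 with the smallest p. KBTBD4, KLHL31 (between tissues), KLHL4, KLHL5, KLHL6, KLHL7, KLHL13, KLHL23, CUL3, CAND1, COPS3, LMOD3, FLNC, TCOF1, RHOBTB3, CUL2 and CUL4A were in part also singled out after their values were seen. The members and lists were chosen with earlier results of these data known. The same animals gave both tissues, so animal numbers pair the libraries. Deviations of paired libraries from their group means correlated at -0.21 to 0.15 over 7938 genes. No column was left unassigned.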

Additional observations from a re-analysis of the deposited data

Results flagged for a closer look

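KBTBD4 in the control adipose tissue of rhesus_940129 stood apart from the other controls, at 8.476 RPKM against 5.66 to 6.10 RPKM in the other 3. Such a lone sample was looked for in 30 sets of 4 controls, and chance gives about 1 in 20 of such sets. KBTBD4 was lowest in rhesus_940313, whereas 12 of the 17 members tested in adipose tissue were lowest in rhesus_940129.

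In 3 members the case lay beyond all controls in opposite directions in muscle and adipose tissue. The share of all genes that did so was not computed. In muscle 34.9% of all genes tested were above all controls and 15.2% below. In adipose tissue these shares were 27.9% and 7.8%. For KLHL31, above all controls in muscle and below all of them in adipose tissue, the difference of the effects was -3.344 on the log2 scale (adjusted p = 0.824 by edgeR). For KLHL18, a cullin-3 adaptor known from Aurora kinase control, the case was below all controls in muscle (0.982 against 1.19 to 1.38 RPKM) and above all of them in adipose tissue (4.02 against 1.68 to 3.54 RPKM), and the difference of the effects was 1.013 (95% CI -0.28 to 2.30, adjusted p = 0.930 by edgeR). KLHL6, a member known from B lymphocytes and under the filter in both tissues, was below all controls in the case's muscle (0.0419 against 0.166 to 1.35 RPKM) and above all of them in its adipose tissue (1.09 against 0.0874 to 0.266 RPKM), and with no filter the difference of the effects was 6.068 (adjusted p = 0.767 by edgeR). None of the 3 passed the test of the difference.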

How the results depend on the processing

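The 4 muscle-restricted members were called higher in muscle under each alternative that was run. Only the call was repeated, since the ratio of control means was taken from all 4 controls throughout. These members also passed the filters on mean RPKM through their muscle levels. Of 538 values of single members under alternatives, 461 kept their direction and their side of the threshold, 47 changed direction, 9 passed the threshold only there and 21 no longer passed it. The number of members higher in adipose tissue, 7, became 12 with mapped totals, 11 with limma on log2(RPKM + 0.1) and 1 with a filter of 5 RPKM, and was 4 to 8 when a control was left out (4 without rhesus_940313). With the animal as a replicate block, members called were 6 higher in muscle and 6 higher in adipose tissue, KLHL13 no longer being called (adjusted p = 0.103 by edgeR). The block changed no other call of a member. Members called in a case comparison stayed at 0 in every alternative, while calls over all genes, 0 by edgeR, were 88 in muscle, 11 in adipose tissue and 16 for the difference with DESeq2. By edgeR they were 14 in muscle without rhesus_940313, 10 in muscle with no filter, 6 in adipose tissue without rhesus_920401 and 33 in adipose tissue without the libraries of rhesus_920401 and rhesus_940313, and in the other alternatives at most 3.

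Between tissues, mapped totals, limma on log2(RPKM + 1) and limma on log2(RPKM + 0.1) turned KBTBD2 to -1.24, -0.95 and -1.13, KLHL18 to -1.05, -0.66 and -0.95, and KLHL29 to -0.48, -0.24 and -0.41. In the case's muscle the same 3 turned KLHL30 to 0.11, 0.18 and 0.19, KLHL38 to 0.17, 0.18 and 0.19, and KLHL40 to 0.12, 0.24 and 0.24, and in adipose tissue KBTBD2 to 0.077, 0.13 and 0.16, and KLHL2 to 0.021, 0.084 and 0.12. KLHL38 in muscle also turned to 0.0010 with median-of-ratios scaling and with DESeq2, to 0.0056 with no filter and to 0.0090 with the filter of 5 RPKM, and KBTBD13 to 0.016 with log2(RPKM + 0.1). With all 10 libraries in a single fit, KLHL20 and KLHL9 in adipose tissue turned to -0.033 and -0.0031. Without the adipose libraries of rhesus_920401 and rhesus_940313, KBTBD2 in adipose tissue turned to 0.12. The difference of the case's effects for KLHL20 turned to 0.019 with limma on log2(RPKM + 1), with or without the replicate block. When a control was left out, direction also turned for KLHL8 between tissues (-0.87 to 0.0050), for KLHL20 (-0.058 to 0.28), KLHL30 (-0.21 to 0.10), KLHL38 (-0.097 to 0.067) and KLHL40 (-0.22 to 0.33) in the case's muscle, for KBTBD2 (-0.28 to 0.083), KLHL2 (-0.39 to 0.023), KLHL20 (-0.16 to 0.19) and KLHL9 (-0.21 to 0.21) in its adipose tissue, and for the difference of effects of KLHL20 (-0.14 to 0.025). The cause of these turns was not tested, apart from the scaling.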
